A study of Mus musculus with 4 samples.

Results

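The genes described here are 9 that encode components of cartilage matrix other than collagen: Acan, Comp, Matn1, Matn3, Hapln1, Snorc, Cnmd, Chad and Cytl1. They were found by symbol among the 32285 features counted in every section, and all 9 had a row. The counts came from spatial transcriptomics of fresh frozen tibial muscle, in which polyadenylated RNA is captured on a grid of barcoded spots and each captured molecule is counted as 1 unique molecular identifier (UMI). There were 4 sections, 1 from uninjured muscle (day 0) and 1 each from 1, 3 and 7 days after injury with cardiotoxin, a snake venom toxin that destroys muscle fibres. Every mouse, including the uninjured ones, was a C57BL/6 animal 6-8 weeks old carrying the Nse-Bmp4 transgene, in which the neuron-specific enolase promoter drives bone morphogenetic protein 4, and muscle of this strain forms ectopic cartilage and bone after injury. Muscle without the transgene was not analysed here, so the effect of injury alone cannot be told apart from that of injury with the transgene. The labels state that 3 tibial muscles were mixed for each group, without saying whether this holds for the sections or how.

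Cartilage resists compression because aggrecan, a proteoglycan loaded with sulphated glycosaminoglycan chains, is tethered to hyaluronan by link protein inside a network of type II collagen. Smaller adaptor proteins, among them the matrilins and cartilage oligomeric matrix protein, tie the collagen fibrils to this gel and to each other. In growing cartilage some of these genes mark the earliest chondrocytes and others the mature cells, and several are also used by tendon, so their appearance in muscle can be followed gene by gene.

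The day 0, 1, 3 and 7 sections held 2107, 2667, 3029 and 3032 spots with 43871586, 16777832, 56113066 and 41832640 UMIs. The day 1 section was the shallowest, with a median of 6322 UMIs per spot against 12120 to 21029 in the other sections and with 513 spots under 2000 UMIs. Fibre genes marked every section as muscle, and the 8 genes of adult muscle fibres took 19.6%, 10.4%, 6.40% and 11.2% of UMIs at days 0, 1, 3 and 7. Col2a1, the defining collagen of cartilage, had 13, 2, 5 and 25868 UMIs on those days. As each day had 1 section, variation among animals was not measured, no p-value is given and every interval is a 95% interval of counting error only. Levels are given as counts per 1000000 UMIs of the section (CPM), and in a spot or section fewer cells of a type cannot be told apart from less RNA per cell. The sections shared between 1539 and 2311 spot barcodes pairwise.

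The 9 genes followed 4 time courses. Acan, Hapln1, Snorc, Cnmd, Matn3 and Matn1 were close to absent until day 7, Comp was higher in each later section, Chad was higher from day 1 on with little further difference, and Cytl1 stayed within 4-fold of day 0 on every day. Summed over the 9 genes, the level was 6.02 CPM in uninjured muscle and 29.4, 46.4 and 893 CPM in the 3 later sections. The gene that supplied most of these UMIs changed from section to section. Before injury Cytl1 gave 61.4% of them. Chad followed with 43.1% at day 1 and Comp with 74.1% at day 3, and the day 7 share was 42.8% for Comp and 32.7% for Acan.

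A gene was compared between a pair of sections where they held at least 10 of its UMIs in sum, counts under 3 were entered as 3, and a CPM ratio over 4 was counted as a difference. The ratios printed for single genes use the counts as they are, with their counting interval, and are given as a lower bound from 3 UMIs where the earlier section had 0. At day 1 against day 0, 3 of the 9 genes had enough UMIs and 2 of these, Comp and Chad, were over 4-fold higher, where 6.08% of the 15091 features compared were. At day 3 against day 0 the same 2 genes passed among 4 compared, against 13.0% of all features. At day 7 against day 0 all 9 could be compared and 8 were over 4-fold higher, against 9.89% of all features, the exception being Cytl1. At day 7 against day 3, 8 of 9 were over 4-fold higher, against 5.09% of all features, and here the exception was Chad. No member was over 4-fold lower in these 4 comparisons, in which 2.58%, 2.21%, 0.348% and 2.78% of features were. The median log2 ratio of the members compared was 3.19, 2.32, 8.58 and 8.00 in the order just given, beside 0.15, 0.58, 0.65 and 0.08 over all features, and in the day 1 and day 3 comparisons the members with enough UMIs were mainly those already present. Acan, Hapln1, Snorc, Cnmd, Matn3 and Matn1 had at most 2 UMIs at day 0. At day 7 against day 0 they passed the minimum only through day 7 and could not have come out lower. At day 7 against day 3 the same held for all of these but Matn3. Matn3, with 2 UMIs at day 0 and 12 at day 3, entered the comparison of day 3 with day 0 only through day 3. The counts and medians of day 7 are thus a description, and so is the part of Matn3 in those of day 3.

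**Figure D1:**
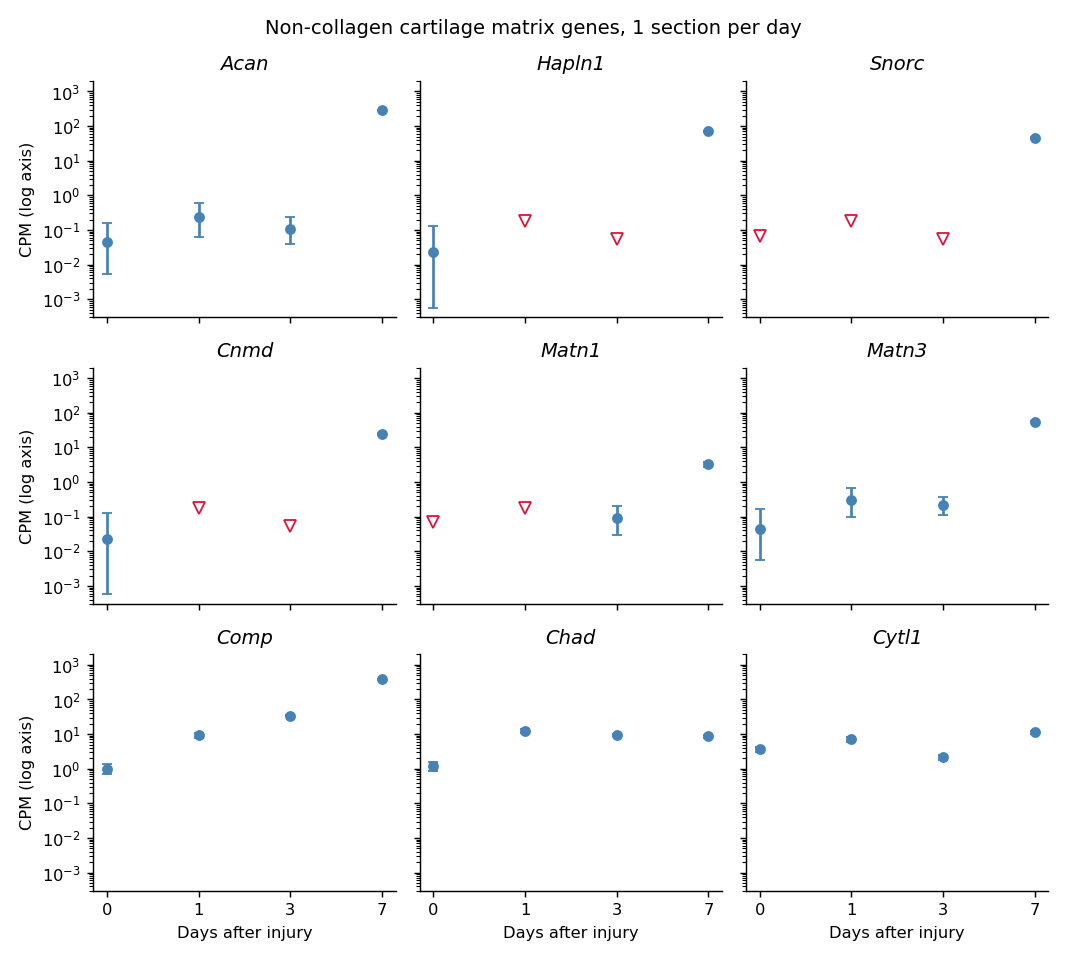
Level of each of the 9 genes in the 4 sections, in CPM on a logarithmic axis against days after injury (equally spaced). Points are single sections with 95% Poisson intervals, and open triangles stand for sections with 0 UMIs, drawn at the level of 3 UMIs. The upper 6 genes stand near or under 0.3 CPM until day 7, while Comp steps upward from 1.00 to 383 CPM and Chad and Cytl1 stay between 1.19 and 12.7 CPM.

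Acan encodes aggrecan, the main proteoglycan of cartilage. It had 2, 4, 6 and 12224 UMIs at days 0, 1, 3 and 7, and no spot of the first 3 sections held more than 1 of them. At day 7 its level was 292 CPM, 6410-fold that of day 0 with a counting interval of 1774 to 52935, and the 12224 UMIs lay in 1779 of 3032 spots with up to 128 in a spot. Hapln1, the link protein that clamps aggrecan to hyaluronan, had 1, 0, 0 and 2983 UMIs. Its day 7 level of 71.3 CPM was at least 1334-fold that of day 3. Acan and Hapln1, whose products work in the same complex, each had 6 UMIs or fewer in every section before the last.

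Snorc is a small transmembrane proteoglycan of chondrocytes, and it had 0, 0, 0 and 1888 UMIs. The day 7 level of 45.1 CPM was at least 660.0-fold that of day 0, and the absence of UMIs at day 3 allowed at most 0.0657 CPM. Cnmd encodes chondromodulin, a membrane glycoprotein of cartilage known to hold off blood vessels, and had 1, 0, 0 and 1000 UMIs, which made it at least 447-fold higher at day 7 than at day 3. For both genes the day 7 section stood alone.

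Matrilins are oligomeric adaptors that bridge collagen fibrils and proteoglycans. Matn3 had 2, 5, 12 and 2291 UMIs, and its 54.8 CPM at day 7 were 256-fold the level of day 3 (146 to 496). Matn1, known from resting and proliferating cartilage, had 0, 0, 5 and 139 UMIs, and reached 3.32 CPM at day 7, 37.3-fold the level of day 3 (15.6 to 117). Matn1 was found in only 102 of the day 7 spots, against 847 for Matn3.

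Comp encodes cartilage oligomeric matrix protein, a pentameric thrombospondin of cartilage, tendon and ligament. It had 44, 154, 1932 and 16007 UMIs, or 1.00, 9.18, 34.4 and 383 CPM. The level at day 1 was 9.15-fold that of day 0 (6.51 to 13.1), that at day 3 was 34.3-fold (25.5 to 47.4), and day 7 stood a further 11.1-fold above day 3 (10.6 to 11.7). Each section lay outside the counting interval of the one before it.

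Chad encodes chondroadherin, a leucine-rich repeat protein of cartilage and tendon that binds integrin and collagen. Its UMIs numbered 52, 213, 532 and 364, or 1.19, 12.7, 9.48 and 8.70 CPM. The day 1 level was 10.7-fold that of day 0 (7.88 to 14.8), whereas day 7 was 0.918-fold day 3 with an interval from 0.801 to 1.05. Chad was the member with no difference over 4-fold between day 3 and day 7.

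Cytl1 encodes a small secreted protein first described in blood stem cells and used as a chondrocyte marker. It had 162, 118, 119 and 471 UMIs, or 3.69, 7.03, 2.12 and 11.3 CPM. Against day 0 the ratios were 1.91 at day 1 (1.49 to 2.43), 0.574 at day 3 (0.449 to 0.732) and 3.05 at day 7 (2.55 to 3.67), and the day 7 level was 5.31-fold that of day 3. Its level was lowest at day 3 and highest at day 7.

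The DNA just before the start site was read for the genes that carry these time courses, from RefSeq on build GRCm38.p6, which corresponds to the build mm10 named for the counts. Of the 9 genes 7 had a window in the table used, and Comp and Snorc had none. The windows hold the 250 bases before the start site that the promoter table uses, which for Hapln1 and Cnmd lies inside the gene as annotated, so that their windows overlap it. Both strands were searched for ACAAT and ACAAAG, cores of sequences that SOX proteins can bind, and for TATAAA. The first occurred in 1 of the 7 windows (Hapln1), the second in 0 and the third in 1 (Chad), where 27.7%, 16.5% and 12.4% of the 32851 windows of all genes hold them. Acan and Matn3 are shown for the genes that appeared at day 7, Chad for the early one and Cytl1 for the one within 4-fold of day 0 throughout, with the match in capitals. The windows of Acan, Matn3 and Cytl1 contain none of the 3 motifs, and bases G and C make up 74.4% of the Acan window, 65.2% of that of Matn3, 60.4% of that of Chad and 54.8% of that of Cytl1.
Acan, chr7:79052976-79053225, plus strand: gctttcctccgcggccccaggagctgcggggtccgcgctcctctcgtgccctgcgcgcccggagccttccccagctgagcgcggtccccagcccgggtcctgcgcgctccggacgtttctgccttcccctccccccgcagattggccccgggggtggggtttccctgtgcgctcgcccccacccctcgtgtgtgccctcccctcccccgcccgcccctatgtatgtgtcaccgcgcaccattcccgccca
Matn3, chr12:8947679-8947928, plus strand: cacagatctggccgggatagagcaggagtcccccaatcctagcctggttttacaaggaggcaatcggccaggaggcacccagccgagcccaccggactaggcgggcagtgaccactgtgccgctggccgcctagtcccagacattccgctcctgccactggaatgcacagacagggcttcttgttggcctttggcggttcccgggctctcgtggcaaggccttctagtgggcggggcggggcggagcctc
Chad, chr11:94564797-94565046, plus strand: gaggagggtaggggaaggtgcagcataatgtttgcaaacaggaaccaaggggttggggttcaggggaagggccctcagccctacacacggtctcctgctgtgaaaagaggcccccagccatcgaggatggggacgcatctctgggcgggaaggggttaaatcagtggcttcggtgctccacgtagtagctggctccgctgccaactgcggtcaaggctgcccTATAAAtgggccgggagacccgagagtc
Cytl1, chr5:37735269-37735518, plus strand: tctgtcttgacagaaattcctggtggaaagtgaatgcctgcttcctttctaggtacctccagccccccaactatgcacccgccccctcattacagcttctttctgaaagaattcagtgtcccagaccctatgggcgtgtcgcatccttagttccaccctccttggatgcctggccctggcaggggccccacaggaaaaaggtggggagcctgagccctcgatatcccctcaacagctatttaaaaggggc

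The TATAAA of Chad lies 28 bases before its start. A match of these letters is a description of the sequence and says nothing of binding. The gene bodies that follow differ in size, from 71304 bases for Hapln1 (chr13:89540529-89611832) and 61874 for Acan (chr7:79053226-79115099) to 4081 for Chad (chr11:94565047-94569127) and 4302 for Cytl1 (chr5:37735519-37739820). The remaining genes lie at chr8:70373548-70382066 (Comp), chr4:130944385-130955476 (Matn1), chr12:8947929-8972028 (Matn3), chr1:87470201-87475482 (Snorc) and chr14:79637682-79662194 (Cnmd), so no 2 of the 9 share a chromosome.

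The genes also spread over the tissue. At least 1 UMI of any of the 9 was found in 121 spots of uninjured muscle (5.74%) and in 261 (9.79%), 807 (26.6%) and 2618 (86.4%) spots of the later sections. Because depth differed, each spot was also thinned to 2000 UMIs, leaving out 17, 513, 9 and 84 shallower spots, and the expected shares were then 0.957%, 4.16%, 6.76% and 51.0%. For Acan the thinned share was 26.8% at day 7 (25.2 to 28.5), for Comp 34.4% (32.7 to 36.2) and for Hapln1 10.2% (9.11 to 11.3). In the day 7 section 561 spots held at least 5 of the 9 genes and 2 held all 9, while no spot of the earlier sections held 5. Col2a1 itself was in 2219 of the 3032 day 7 spots, Comp in 2155 and Acan in 1779, all without thinning.

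**Figure D2:**
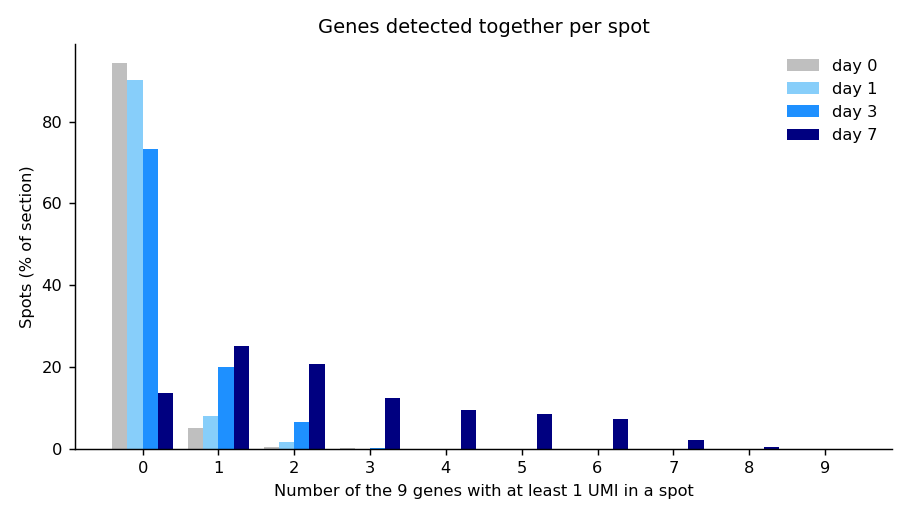
Share of spots in each section (bars, percent) by the number of the 9 genes with at least 1 UMI in the spot, without thinning. Spots with none made up most of the day 0, 1 and 3 sections, and only day 7 has bars at 5 or more, 18.5% of its spots in all. Depth differed between sections.

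To set the genes against cartilage itself, day 7 spots of at least 2000 UMIs were grouped by the summed RNA of 5 cartilage collagens that are not members (Col2a1, Col9a1, Col9a2, Col9a3 and Col11a2). Per 10000 UMIs, 295 spots had none, 1507 had above 0 to 5, 807 had 5 to 20, 219 had 20 to 100, and 120 had 100 and over. These last 120 spots were 4.07% of the spots and held 2.79% of the UMIs. Fibre genes fell along the same order from 147534 to 36017 CPM, and macrophage genes were at 1064, 2146, 1863, 1679 and 1103 CPM, highest in the middle groups. A list of 8 hypertrophy genes went from 63.1 to 3996 CPM in sum. Col10a1, Ihh and Mmp13, markers of hypertrophic chondrocytes, the final stage of these cells, stood at 211, 191 and 20.6 CPM in the richest spots. Most of the sum there thus came from other genes.

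For 7 of the 9 genes the level differed by over 40-fold between the ends of this order. Acan measured 38.5, 54.4, 315.5, 1165 and 2568 CPM from no collagen to the richest spots, and Comp 74.5, 107, 392, 1250 and 3668 CPM. Hapln1 measured 6.42, 12.0, 62.3, 190.5 and 1094 CPM. The ratio of the richest spots to those without collagen was 170 for Hapln1 (107 to 288), 121 for Matn3 (72.7 to 217), 114 for Snorc (70.9 to 197), 66.7 for Acan (55.0 to 81.5), 61.8 for Matn1 (20.4 to 306), 49.2 for Comp (42.8 to 56.8) and 40.4 for Cnmd (24.8 to 70.3). The median spot held 1, 2, 4, 6 and 6 of the 9 genes along the order, and 117 of the 120 richest spots held at least 5. Acan and Comp were detected in all 120, Hapln1 in 119 and Snorc in 117.

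Chad and Cytl1 departed from this. Chad measured 4.28, 9.08, 8.57, 6.35 and 19.8 CPM, a ratio of 4.61 between the ends (2.20 to 10.2), and Cytl1 measured 5.71, 14.6, 8.24, 4.04 and 12.0 CPM, a ratio of 2.11 (0.952 to 4.61). The highest bound of these 2 intervals, 10.2, lay under the lowest bound of the other 7, 20.4. The 339 spots of the 2 richest groups held between 53.9% (Comp) and 71.2% (Matn1) of the UMIs of the other 7 genes, but 12.4% of those of Chad and 6.00% of those of Cytl1. With fibre, mitochondrial and haemoglobin genes left out of the total, the ratio of Chad was 3.29 and so no longer over 4, and those of the other 7 genes ranged from 28.7 to 121.

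**Figure D3:**
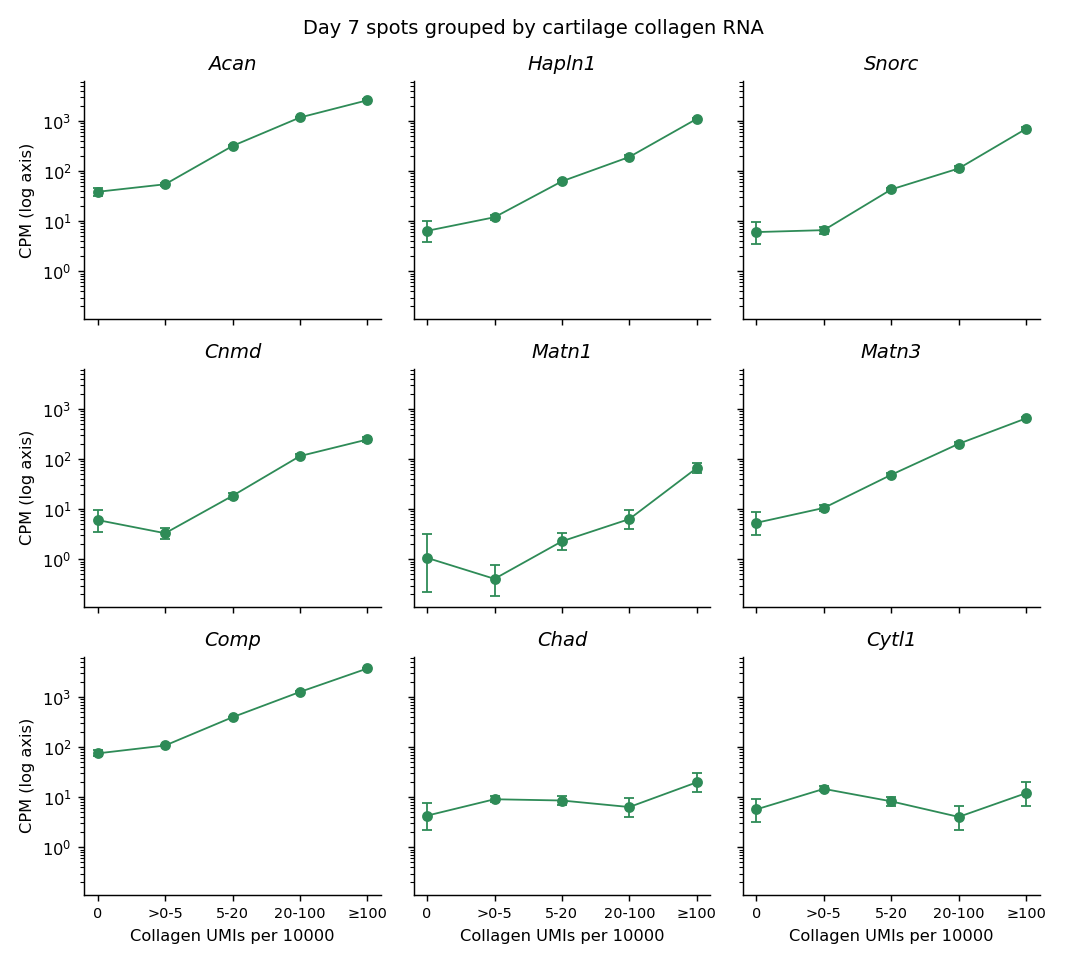
Level of each gene at day 7 (CPM, logarithmic axis) in spots grouped by UMIs of 5 cartilage collagens per 10000 UMIs, pooled over the 295, 1507, 807, 219 and 120 spots of each group, with 95% Poisson intervals. The 7 genes from Acan to Comp climb towards the collagen-rich spots, and Chad and Cytl1 remain between 4.04 and 19.8 CPM.

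Even spots without any of the 5 collagens held these genes at day 7. Acan stood there at 38.5 CPM, in 89 of the 295 spots, while the whole day 3 section had 0.107 CPM. Comp was found in 144 of the 295. These spots were shallower than the section, with a median of 8501 UMIs, and whether their UMIs came from cells within the spot or from RNA of neighbouring spots was not tested.

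Within the cartilage order the proportions between the genes changed. For every 100 Acan UMIs there were 22.0 of Hapln1 in spots with above 0 to 5 collagen UMIs per 10000, 19.7 and 16.3 in the next 2 groups and 42.6 in the richest (39.9 to 45.5). Snorc went from 9.63 per 100 Acan UMIs in the second richest group (8.66 to 10.7) to 27.0 in the richest (24.9 to 29.2), and Matn1 from 0.545 to 2.57. In these 3 genes the step into the richest group was over 2-fold relative to Acan. Matn3 moved from 17.2 (15.9 to 18.7) to 25.1 per 100 (23.2 to 27.2). Cnmd was at 9.81 (8.82 to 10.9) and 9.53 (8.41 to 10.8), and only for Cnmd did the intervals overlap.

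Among the 120 richest spots, 24 held at least 3 UMIs per 10000 of Col10a1, the collagen of hypertrophic chondrocytes. Compared with the other 96, these 24 spots had 1.76-fold as much Snorc (1.50 to 2.06), 1.46-fold Hapln1 (1.28 to 1.67), 1.37-fold Comp (1.27 to 1.47) and 2.03-fold Matn1 (1.19 to 3.36, on 23 and 54 UMIs). The 5 collagens that set the groups were themselves 1.33-fold higher there. Cnmd ran the other way at 0.603-fold (0.404 to 0.873) and Acan at 0.890-fold (0.805 to 0.983), while Matn3 was at 0.968-fold (0.794 to 1.17). Chad was at 4.37-fold (1.75 to 10.8) on 11 and 12 UMIs and Cytl1 at 3.57-fold (1.02 to 11.7) on 6 and 8 UMIs. With the threshold at 10 UMIs per 10000, which leaves 5 spots, Acan was at 1.28-fold, Matn1 at 0.924-fold and Cytl1 at 0 UMIs.

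Before day 7 Comp and Chad were higher in spots with tendon genes than in other spots. Spots were called tendon-gene spots where Tnmd, Scx, Mkx and Kera, genes of tendon cells, together reached 5 UMIs per 10000 while the 5 collagens did not. At day 3 there were 19 such spots and 3001 in which neither list reached 5 UMIs per 10000. Comp stood at 560.5 against 32.2 CPM, 17.4-fold (14.5 to 20.8). Chad stood at 293 against 8.29 CPM, 35.4-fold (27.0 to 45.6). Both genes were in nearly all of these spots, Comp in 18 and Chad in 17 of 19. Matn3 had 2 of its 12 UMIs of the section there. Acan, Matn1 and Col2a1 had 0, but the section held only 6, 5 and 5 UMIs of them. Hapln1, Snorc and Cnmd had 0 in the whole section. These zeros therefore do not set the tendon-gene spots apart. The 19 spots held 6.83% of Comp and 13.0% of Chad UMIs of the section, so most UMIs of both genes lay elsewhere. Prg4, a joint and sheath lubricant gene, was at 994 CPM in them against 229 in the others, and its part in the result was not tested.

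The same spots were then sought at the other days. At day 0 there were 6, in which Comp stood at 113 CPM, 155-fold the level of the rest (65.0 to 332), and Chad also at 113 CPM, 142-fold (59.9 to 300.5), on 9 UMIs each. At day 1 there were only 2, with ratios of 33.6 for Comp and 36.3 for Chad. At day 7 there were 13, and Comp was 4.62-fold (3.75 to 5.65) and Chad 18.8-fold (12.3 to 27.8) above the 1789 spots with neither list at the threshold. Of these 1789 spots, 1046 held Col2a1, so the comparison was not with spots free of cartilage RNA. For Acan the day 7 ratio was 2.68 (1.80 to 3.85), on 30 UMIs. Cytl1 had 0 UMIs in the tendon-gene spots of all 4 sections. The upper bounds of its ratio were 12.69, 19.55, 7.468 and 1.252 at days 0, 1, 3 and 7. A level equal to that of the other spots thus lay within every interval. The ratios rest on few spots, and with a threshold of 2 UMIs per 10000 they were 5.28 for Comp and 6.77 for Chad at day 3 and 2.62 and 11.5 at day 7.

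How often Comp shared spots with Chad and Acan differed between days 3 and 7. At day 3, among 3020 spots of at least 2000 UMIs, 668 held Comp (22.1%) and 278 held Chad, and 179 held both, which is 26.8% of the Comp spots and 64.4% of the Chad spots. At day 7, 2125 spots held Comp (72.1% of all), 212 Chad and 184 both, or 8.66% of the Comp spots and 86.8% of the Chad spots. Acan, in 6 spots at day 3, was in 1757 at day 7 (59.6% of all), of which 1470 also held Comp, or 83.7% of the Acan spots and 69.2% of the Comp spots. At day 3, 2 of the Comp spots held Acan. Chad was in 9.18% of all spots of the day 3 section and 7.03% of those of day 7. The day 7 share of Comp spots with Chad was thus near that of all spots. These shares were not corrected for depth.

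Spot barcodes are fixed positions of the array and recur between sections. At the barcodes of the 339 day 7 spots richest in collagen, the day 3 section held 156 of its 2606 UMIs of the 9 genes, a level 0.4925-fold that of its other spots (0.416 to 0.579). The day 0 section held 10 of 264 there, 0.262-fold, and the day 1 section 130 of 494, 1.50-fold (1.22 to 1.83). The day 1 excess was made up of Comp and Chad, with 49 and 61 UMIs. Hapln1, Snorc and Cnmd had 0 UMIs at these barcodes in all 3 earlier sections. As those sections held only 1, 0 and 1 UMIs of the 3 genes in all, these zeros can show nothing about the barcodes.

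The highest counts of Cytl1 lay in spots rich in smooth muscle RNA. Its 162 UMIs of day 0 were in 70 spots, and 40 of them in a single spot that held 47 UMIs of Myh11, the smooth muscle myosin heavy chain, and none of the other 8 genes. The fullest Cytl1 spots of days 1, 3 and 7 held 17, 27 and 56 UMIs of it beside 23, 43 and 70 of Myh11, with 0 of Col2a1 in each. Col2a1 was in only 2 and 5 spots of the whole day 1 and day 3 sections, and the other 8 genes were sparse at day 0. The zeros of days 0, 1 and 3 therefore do not set these spots apart. At day 7 Col2a1 was in 2219 spots, and the fullest Cytl1 spot also held 1 UMI of Acan and 3 of Comp. Among genes that are not members, Myh11 was the one whose level across spots was most like that of Cytl1 in every section. Pearson r was 0.409, 0.504, 0.412 and 0.505 at days 0, 1, 3 and 7 over 2090, 2154, 3020 and 2948 spots.

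Spots with at least 5 Myh11 UMIs per 10000 numbered 8, 15, 8 and 42 at the 4 days. They held 40.1%, 59.5%, 54.6% and 51.4% of all Cytl1 UMIs in spots of at least 2000 UMIs, and Cytl1 stood at 456, 791, 402 and 442 CPM in them against 2.22, 2.91, 0.965 and 5.51 CPM in the other spots. As Myh11 was picked for its likeness to Cytl1, these ratios, between 80.2 and 416, are a description. The level in the Myh11 spots thus stayed within 2-fold over the 4 sections, and there were 42 such spots at day 7 against 8 at day 0. Outside them Cytl1 was also highest at day 7.

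**Figure D4:**
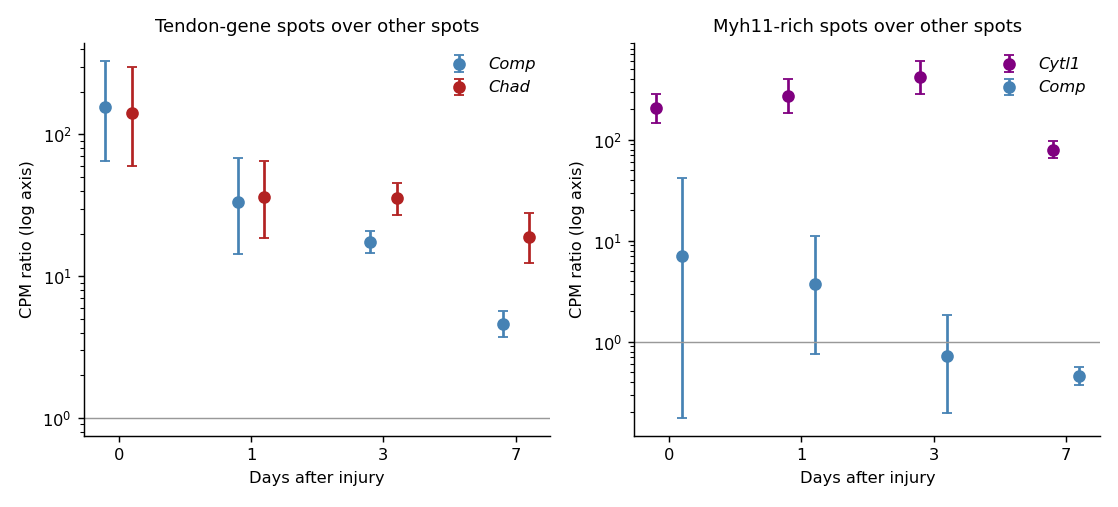
Ratios of CPM between groups of spots at each day (logarithmic axis, days equally spaced, 95% intervals of counting error, grey line at equal levels). Left, Comp and Chad in tendon-gene spots against spots with under 5 UMIs per 10000 of the tendon genes and of the 5 cartilage collagens. Right, Cytl1 and Comp in spots with at least 5 Myh11 UMIs per 10000 against all others. Comp moves from 155 to 4.62 in the left panel, and Cytl1 lies at 80.2 or above in the right panel on every day. In tendon-gene spots Comp was at 113 CPM at day 0 and 463 CPM at day 7. In the spots they were compared with it was at 0.732 and 100 CPM.

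The nearest genes of the other members, by Pearson r of log2(counts per 10000 + 1) across the 2948 day 7 spots of at least 2000 UMIs and among 10734 genes of at least 200 UMIs, were nearly all matrix genes. Acan was closest to Col12a1 (0.783), C1qtnf3 (0.767) and Col2a1 (0.760), and Comp to Col1a2, Col2a1 (both 0.753) and Col12a1 (0.741). Matn3 and Cnmd had the same 3 nearest genes, Col9a1, Col9a3 and Col9a2, at 0.690 to 0.716 for Matn3 and 0.597 to 0.628 for Cnmd. Hapln1 and Snorc also shared theirs, Col2a1, Pth1r and Col9a3, at 0.711 to 0.741 and 0.690 to 0.716. Pth1r is the receptor for parathyroid hormone and its related protein, known from the growth plate. Chad was closest to Cilp2 (0.434), Angptl7 (0.414) and Col22a1 (0.338), the last a collagen of the junction between muscle and tendon. Matn1, with 139 UMIs, was too sparse to be ranked.

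On earlier days the neighbours of Comp were different. At day 0 they were Tnmd, Fmod and Col22a1 (0.343 to 0.404, on 44 Comp UMIs), at day 1 Fmod, Angptl7 and Mgp, and at day 3 Fmod (0.659), Cfd and Hp, of which Cfd is known from fat tissue. None of these was among its 3 nearest at day 7. Chad had Fmod among its 3 nearest on days 0, 1 and 3 (0.459, 0.503 and 0.629) and Angptl7 on days 1 and 7. Fmod encodes fibromodulin, a collagen-binding proteoglycan abundant in tendon and cartilage. Spots share a library and differ in depth and in muscle content, and no p-value is given for these correlations. Between the members themselves, Spearman rho over 36 pairs in day 7 spots thinned to 2000 UMIs ran from -0.011 (Chad and Cytl1) to 0.432 (Acan and Comp), with a median of 0.121. These values moved with the depth kept. Thinned to 1000 and 4000 UMIs, the median was 0.089 and 0.182, and Acan and Comp stood at 0.351 and 0.512.

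Relatives of the members showed how far the day 7 pattern belonged to single genes of a family. Among the hyaluronan-binding proteoglycans, Vcan (versican), which is made by many connective tissues, was already at 18.6 CPM at day 0 and reached 23.1, 58.9 and 60.9, so that day 7 was 1.03-fold day 3 (0.981 to 1.09). Bcan had 4, 0, 4 and 28 UMIs, and Ncan no more than 4 in the day 0, 3 and 7 sections. Along the collagen order at day 7 Vcan went from 72.2 to 5.25 UMIs per 100 Acan UMIs, its own ratio between the ends being 4.85 (3.67 to 6.44) against 66.7 for Acan. The 2 proteoglycans thus differed both in time and in place.

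Matn4 followed Acan in time and place. It had 42, 6, 53 and 8624 UMIs, its level of 206 CPM at day 7 was 218-fold that of day 3, and per 100 Acan UMIs it stayed between 65.1 and 74.5 in all 5 groups of the collagen order. Matn2, a matrilin of many tissues, had 9.46, 6.56, 15.2 and 28.5 CPM. Of the other link proteins, Hapln4 reached 2.82 CPM at day 7 from 0.160 at day 0, Hapln3 1.10 from 0.456, and Hapln2 had 5, 0, 2 and 1 UMIs.

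The other thrombospondins followed different courses from Comp. Thbs4, known from muscle and tendon, was at 73.1, 346, 530 and 315 CPM and Thbs1 at 9.94, 42.0, 216 and 94.3 CPM, both highest at day 3. Thbs2 was at 9.82, 14.2, 88.3 and 215 CPM and Thbs3 at 19.7, 6.14, 43.3 and 80.8 CPM. Day 7 over day 3 was 11.1 for Comp, 2.44 for Thbs2, 1.87 for Thbs3, 0.594 for Thbs4 and 0.436 for Thbs1. Of the 14 relatives examined, 12 could be compared at day 7 against day 0 and 8 were over 4-fold higher, against 9.89% of all features. Their median log2 ratio was 2.27.

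**Figure D5:**
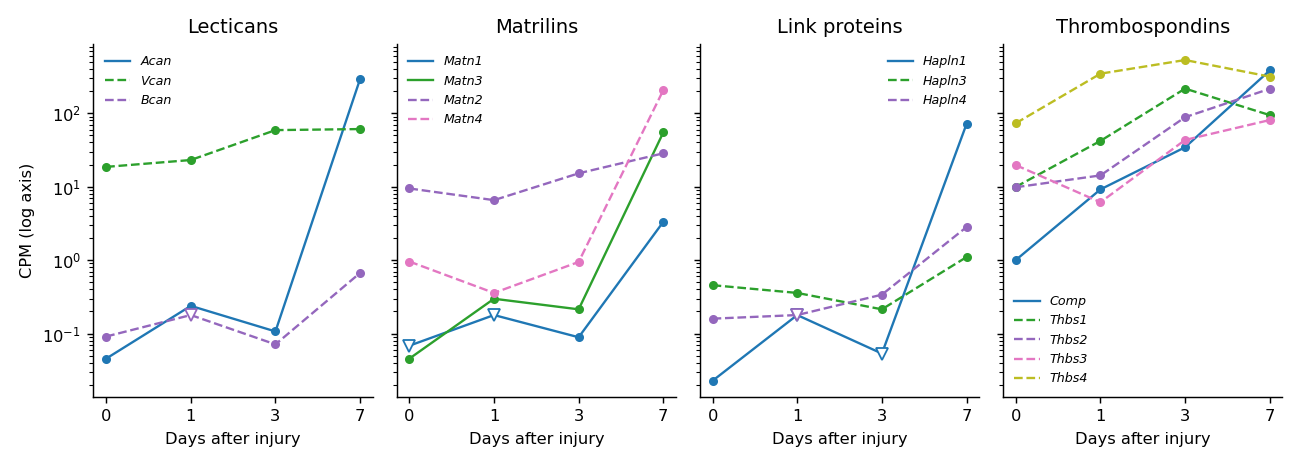
Levels of members (solid lines) and their relatives (dashed lines) in the 4 sections, CPM on a logarithmic axis, days equally spaced. Open triangles mark sections with 0 UMIs, drawn at the level of 3 UMIs, and lines only join the sections. Acan, Matn3, Matn4 and Hapln1 jump between days 3 and 7, while Vcan and Thbs4 were present at day 0 with 18.6 and 73.1 CPM.

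Genes of the enzymes that build the sugar chains of aggrecan, or that cut its core protein and other matrix, did not reach the ratio of Acan at day 7 against day 0. Of 24 genes of glycosaminoglycan synthesis all could be compared, and 10 were over 4-fold higher at day 7 than at day 0 and none lower. Of all features 9.89% were higher. The median log2 ratio of the 24 genes was 1.87. Chst11, a chondroitin sulphotransferase, was 12.9-fold higher, Xylt1, which starts the chains, 10.2-fold, and Slc26a2, the sulphate transporter, 7.36-fold. At day 3, 3 of the 24 were over 4-fold higher than at day 0, the hyaluronan synthases Has1 and Has2 and the sulphotransferase Chst11, and Has3 was lower. The share that was higher is near the 13.0% of all features. Of 9 aggrecanases and other turnover genes, 1, the collagenase Mmp13, was over 4-fold higher at day 7 than at day 0, a share near the 9.89% of all features. At day 7 against day 3 it was 0 of 9, beside 5.09% of all features. Mmp13 had 5, 10, 259 and 205 UMIs, so its level at day 3, before Acan appeared, was close to that of day 7. Adamts5, the main aggrecanase of mouse cartilage, was at 1.60-fold of day 0, and Adamts4 at 3.04-fold of day 0 and 0.333-fold of day 3.

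The 7 cartilage collagens were all over 4-fold higher at day 7 than at day 0, where 9.89% of all features were. Their median log2 ratio was 7.55 beside 8.58 for the 9 members. Of 10 chondrogenic factors 8 could be compared at day 7 against day 0 and 5 were over 4-fold higher, namely Sox5, Sox9, Runx2, Runx3 and Foxa3. Sox9, the transcription factor that drives chondrocyte identity, was at 84.5 CPM at day 7, 21.7-fold day 0 and 5.40-fold day 3, so that it was already at 15.6 CPM when Acan had 6 UMIs. Among 11 other cartilage matrix genes 7 were over 4-fold higher at day 7 than at day 0. Scrg1 went from 2 to 221 UMIs, and Prg4 peaked at 232 CPM at day 3 and stood at 31.4 CPM at day 7, outside the pattern of the members.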

How the data were processed

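The deposited matrices hold counts: UMIs per gene and spot, as the authors made them with Space Ranger on build mm10 (the file headers give version 1.2.0; the labels' protocol also describes Cell Ranger). Rows were matched by symbol, and 114 of 115 listed symbols were found. The 9 members and all gene lists were chosen with earlier results of these data known. UMIs were summed per section and scaled to CPM without further correction, with exact Poisson intervals; ratios have conditional exact binomial intervals. No spot was removed from section sums; spot groups used spots of at least 2000 UMIs. Spots can hold several cells. Named genes were the members, the listed genes and, for each member, the 3 nearest genes at day 7 that are not members. Other days, Myh11 spots, days 0 and 1 of the tendon-gene spots, shared spots and ratios to Acan were added after seeing the data. Code was tested on simulated data. Alternatives used other totals, edgeR 4.0.16 and DESeq2 1.42.0 scaling, filters and thresholds. Python 3.11.15, NumPy 2.4.6, SciPy 1.17.1 and R 4.3.3 were used. Free RNA between spots was not modelled. Protein sequences were not analysed here.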

Additional observations from a re-analysis of the deposited data

How the results depend on the processing

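No paired analysis was possible because each day had 1 section. Under every total or scaling tried, the 4-fold counts of 2, 2, 8 and 8 members were unchanged; without the UMI minimum they were 3, 2, 8 and 8, and at 8-fold 2, 1, 7 and 7. None of the 144 alternative member ratios changed direction where the counting interval excluded equality. Relative to the plain totals, edgeR scaling lowered all log2 ratios to day 0 by 0.21, 0.55 and 0.61 at days 1, 3 and 7 and DESeq2 size factors by 0.19, 0.56 and 0.63. The median log2 ratio of day 7 to day 0 was then 7.97 and 7.94. With all 9 members entered under the plain totals, the median was 1.39 for day 1 to day 0 and 0.38 for day 3 to day 0. The 1.39 is the value of genes entered at 3 UMIs in both sections, so it reflects section depth only. The 0.38 is that of Matn1, with 5 UMIs at day 3 and 0 at day 0, entered as 3. It cannot be set against the 0.58 of all features, which covers only those that passed the UMI minimum. The day 7 share of spots with any member was 36.5%, 66.1% and 86.4% at 1000 UMIs, at 4000 UMIs and without thinning. With a threshold of 2 per 10000, tendon-gene spots were 5.28-fold (Comp) and 6.77-fold (Chad) above the rest at day 3 and 2.62-fold and 11.5-fold at day 7; a threshold of 10 left 1 spot at day 3, with 12.5-fold and 18.2-fold. With 10 Col10a1 UMIs per 10000, which left 5 spots, the ratio was 1.28 for Acan, 0.924 for Matn1 and 0 for Cytl1, each on the other side of 1. Outside spot thinning, the causes were not tested.

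The use of 1 section per day limits every comparison between days: animal, section and position within the muscle cannot be told apart from time. Counts under 10 UMIs, which include most members before day 7, give levels with wide intervals, and Matn1, Chad and Cytl1 were sparse within spot groups.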
